A study of Homo sapiens with 10 samples.

Results

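The genes described here are 10 transcription factors of the neural crest: PAX3, SNAI1, SNAI2, FOXD3, TFAP2A, TFAP2B, SOX9, MSX1, MSX2 and TWIST1. They were chosen by name from the 30357 named genes measured in each library. Bulk RNA-seq was run on neurons made from the human embryonic stem cell line RUES2 (RUES2-Avil:tdT), where tdTomato, a red fluorescent protein, reports AVIL. Cultures were taken at day 60 in vitro and had followed a proprioceptor protocol (3 libraries), a mechanoreceptor protocol (3 libraries) or a nociceptor protocol (4 libraries), named for neurons of muscle stretch, of light touch and of pain. All groups shared the line and the reporter, and there was no untreated group. The titles number the libraries as biological replicates without saying that they were separate differentiations, and the labels do not say whether reporter-positive cells were sorted, so the p-values cover only library-to-library spread, which may be technical.

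The neural crest arises at the border of the neural plate, leaves the neural tube by an epithelial to mesenchymal transition, and gives rise to the sensory and autonomic neurons of the periphery, their Schwann and satellite glia, melanocytes and much of the mesenchyme of the head. Border factors (TFAP2A, TFAP2B, PAX3, MSX1, MSX2) act early, crest specifiers (FOXD3, SOX9) follow, and SNAI1, SNAI2 and TWIST1 act on cell adhesion and migration. In mouse and chick most of these genes are switched off in neurons of the ganglia, while some stay on in glia, mesenchyme or sympathetic neurons.

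Promoter windows of 250 bases before the annotated start, from RefSeq (GRCh38.p14), were searched for 6 of the 10 genes, in 7 windows. SNAI2 was left out of this search by choice, so the counts of windows given here do not cover it. The 3 printed here hold no exon of their gene and carry a match to CCAAT, TGACGTCA or CACGTG. They are those of a crest specifier and of a pair of border factors. Capitals mark CCAAT, or its reverse complement, in PAX3 and MSX1. In FOXD3 they mark TGACGTCA, and further on the separate CACGTG.
FOXD3 (chr1:63322317-63322566, plus strand): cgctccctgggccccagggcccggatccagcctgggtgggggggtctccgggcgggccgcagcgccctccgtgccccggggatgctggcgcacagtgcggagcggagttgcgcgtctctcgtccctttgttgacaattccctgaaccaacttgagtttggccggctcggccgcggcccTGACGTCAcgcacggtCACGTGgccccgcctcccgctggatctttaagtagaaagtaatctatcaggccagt
PAX3 (chr2:222298999-222299248, minus strand): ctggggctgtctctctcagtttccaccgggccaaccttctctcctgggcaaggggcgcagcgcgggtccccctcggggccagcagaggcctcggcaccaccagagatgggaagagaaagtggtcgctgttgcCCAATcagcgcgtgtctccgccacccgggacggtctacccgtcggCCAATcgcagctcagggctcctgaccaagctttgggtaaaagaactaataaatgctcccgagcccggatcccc
MSX1 (chr4:4859415-4859664, plus strand): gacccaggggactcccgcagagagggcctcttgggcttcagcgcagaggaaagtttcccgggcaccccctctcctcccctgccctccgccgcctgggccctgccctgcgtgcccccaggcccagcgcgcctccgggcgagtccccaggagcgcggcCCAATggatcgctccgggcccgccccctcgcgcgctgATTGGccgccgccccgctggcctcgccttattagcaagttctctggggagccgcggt

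These 3 motifs were chosen after the windows had been read, and both strands were searched. CCAAT lay 118 and 73 bases before the PAX3 start and 94 and 57 bases before the MSX1 start, and MSX2 also held a pair of matches, at 117 and 70. At least 1 CCAAT was found in 4 of the 7 windows, against 32.0% of 35116 annotated promoter windows of the same length, and a pair or more in 9.53% of those. Of these matches, that in TFAP2B, 45 bases before the start, lies within 148 bases of its window that are exons of TFAP2B. TGACGTCA and CACGTG, found in the FOXD3 window alone, were in 1.65% and 6.34% of all windows. Motifs named for the factors themselves were also searched. The SNAI E-box CAGGTG, the AP-2 motif GCCNNNGGC and the SOX motif ACAATG had no match in the 7 windows, against 17.5%, 19.8% and 9.29% of all windows. With only 7 windows, an absence of matches cannot be told from these shares. The MSX homeodomain motif TAATTG had a match in TFAP2B alone, against 6.70% of all windows. That match lies in the same exon stretch and shares bases with the CCAAT there.

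The crest factors were expressed at low to moderate levels, and unevenly between cultures of the same protocol. Their summed TPM (an abundance corrected for transcript length and scaled to the same total in each library) was 3.13, 58.9 and 6.33 in the 3 proprioceptor libraries (given here and hereafter in the order of their numbers), 4.59, 7.01 and 47.9 in those of the mechanoreceptor protocol, and 51.5, 75.7, 110.7 and 16.7 in nociceptor libraries 1 to 4. Proprioceptor library 2 and mechanoreceptor library 3 thus lay near nociceptor library 1, and the other proprioceptor and mechanoreceptor libraries lay below all 4 nociceptor libraries. Between 1 and 6 of the 10 factors reached 1 TPM in the proprioceptor libraries, between 2 and 5 in the mechanoreceptor libraries and between 4 and 8 in the nociceptor libraries. TFAP2A, FOXD3 and SNAI2 together made up between 32.3% and 85.9% of the sum. SOX9 and TWIST1 stayed below 1 TPM in all 10 libraries.

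**Figure D1:**
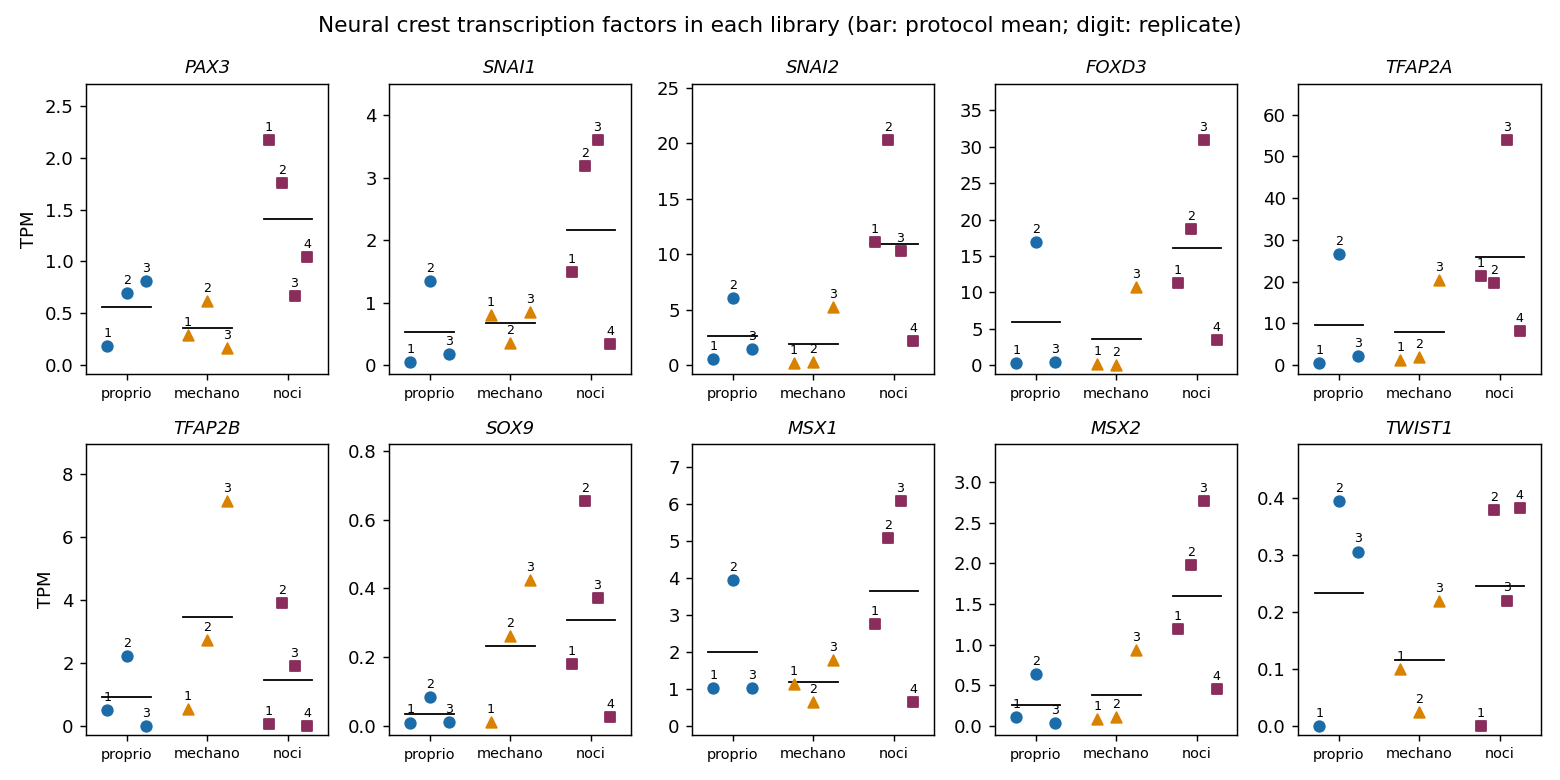
TPM of each factor (vertical axes, each with its own scale) in every library of the proprioceptor, mechanoreceptor and nociceptor protocols; digits give the replicate and bars the protocol mean. Proprioceptor library 2 and mechanoreceptor library 3 stand above the other libraries of their protocols for FOXD3 (16.9 and 10.7 TPM), TFAP2A (26.6 and 20.4 TPM) and SNAI2 (6.05 and 5.27 TPM).

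Among the border factors, TFAP2A, an AP-2 factor that opens the crest programme, was the most abundant. It had 0.400, 26.6 and 2.13 TPM in proprioceptor libraries 1 to 3, 1.29, 2.01 and 20.4 TPM in mechanoreceptor libraries 1 to 3, and 21.3, 19.7, 53.9 and 8.23 TPM in nociceptor libraries 1 to 4. The highest and lowest libraries differed 134.8-fold, and the ranges of the protocols overlapped. The fitted log2 difference was -1.75 ± 1.31 (SE) between the proprioceptor and nociceptor protocols and -1.93 ± 1.32 between the mechanoreceptor and nociceptor protocols (edgeR quasi-likelihood test, Benjamini-Hochberg adjusted p = 0.681 and 0.660).

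TFAP2B, the AP-2 paralog that in the mouse is needed by developing sympathetic neurons, followed another order. It had 0.504, 2.23 and 0 TPM in proprioceptor libraries 1 to 3, 0.535, 2.71 and 7.15 TPM in mechanoreceptor libraries 1 to 3, and 0.0625, 3.91, 1.91 and 0 TPM in nociceptor libraries 1 to 4. Its highest value was thus in mechanoreceptor library 3, and each of the proprioceptor and nociceptor protocols had a library without a count. Those counts of 0 allow up to 0.0803 CPM (counts scaled to library size) in proprioceptor library 3 and 0.108 in nociceptor library 4, for counting error only and with 3 counts as the limit. TFAP2B exceeded TFAP2A in proprioceptor library 1 and mechanoreceptor library 2 and lay below it in the other 8 libraries. It was the 1 factor with a positive fitted difference between the mechanoreceptor and nociceptor protocols, 0.86 ± 1.69 on the log2 scale (edgeR adjusted p = 0.896). Without mechanoreceptor library 3 that difference was -0.73.

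PAX3, a paired-box border factor that also acts in muscle precursors, stayed low but separated the mechanoreceptor from the nociceptor libraries. It had 0.183, 0.698 and 0.810 TPM in proprioceptor libraries 1 to 3, 0.288, 0.622 and 0.169 TPM in mechanoreceptor libraries 1 to 3, and 2.17, 1.76, 0.666 and 1.04 TPM in nociceptor libraries 1 to 4. All 3 mechanoreceptor libraries lay below all 4 nociceptor libraries, with 0.622 and 0.666 TPM as the nearest pair, and such a separation downward held for 1.84% of the 16130 genes tested. No other factor was separated so, none between the proprioceptor and nociceptor protocols, where 1.45% of genes were lower without overlap, and none between the proprioceptor and mechanoreceptor protocols, where 5.02% were lower and 0.868% higher without overlap. The counts behind these values ran between 8 and 154.

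PAX3 averaged 0.564 ± 0.335 TPM in the proprioceptor libraries (SD, n = 3), 0.360 ± 0.235 TPM in the mechanoreceptor libraries (SD, n = 3) and 1.41 ± 0.682 TPM in the nociceptor libraries (SD, n = 4). Its log2 difference between the mechanoreceptor and nociceptor protocols was -2.29 ± 0.66, with an unadjusted p of 0.00535 and an adjusted p of 0.598 in edgeR. DESeq2 gave an adjusted p of 0.0478 for the same contrast, the single call of a crest factor by any tool used. Between the proprioceptor and nociceptor protocols the PAX3 difference was -1.61 ± 0.64 (edgeR adjusted p = 0.665; DESeq2 adjusted p = 0.399).

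MSX1, a homeodomain border factor and BMP target, had 1.03, 3.95 and 1.03 TPM in proprioceptor libraries 1 to 3, 1.13, 0.649 and 1.77 TPM in mechanoreceptor libraries 1 to 3, and 2.74, 5.09, 6.09 and 0.652 TPM in nociceptor libraries 1 to 4. Nociceptor library 4 was thus level with the lowest mechanoreceptor library, and the other 3 nociceptor libraries were above every mechanoreceptor library. MSX1 varied 9.38-fold between its highest and lowest library, the narrowest span of the 7 factors with a count in every library. MSX2 had 0.109, 0.634 and 0.0384 TPM in proprioceptor libraries 1 to 3, 0.0855, 0.109 and 0.928 TPM in mechanoreceptor libraries 1 to 3, and 1.19, 1.98, 2.77 and 0.450 TPM in nociceptor libraries 1 to 4. MSX1 exceeded MSX2 in all 10 libraries, by 1.45-fold to 26.8-fold. The processed pseudogene MSX2P1 shares 90 of the 2269 words of 31 bases in MSX2 transcripts and had between 0 and 2.73 TPM, more than MSX2 in 5 libraries, so low MSX2 values are uncertain.

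FOXD3, a forkhead crest specifier that is also kept in glial precursors, had the widest range after TFAP2A in absolute terms. It had 0.337, 16.9 and 0.407 TPM in proprioceptor libraries 1 to 3, 0.153, 0 and 10.7 TPM in mechanoreceptor libraries 1 to 3, and 11.3, 18.7, 30.9 and 3.47 TPM in nociceptor libraries 1 to 4. Only proprioceptor library 2 and mechanoreceptor library 3 reached the nociceptor range in their protocols, and the remaining 4 libraries of those protocols lay below every nociceptor library. The 0 counts in mechanoreceptor library 2 allow up to 0.0791 CPM. The log2 differences were -1.66 ± 1.75 between the proprioceptor and nociceptor protocols and -2.30 ± 1.80 between the mechanoreceptor and nociceptor protocols (edgeR adjusted p = 0.754 and 0.693). Without proprioceptor library 2 the first was -5.13, and without mechanoreceptor library 3 the second was -7.96.

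SOX9, a specifier that later directs cartilage and glia, had between 1 and 66 counts, with 0.00976, 0.0850 and 0.0104 TPM in proprioceptor libraries 1 to 3, 0.0108, 0.262 and 0.425 TPM in mechanoreceptor libraries 1 to 3, and 0.181, 0.656, 0.372 and 0.0256 TPM in nociceptor libraries 1 to 4. All 3 proprioceptor libraries held 7 counts or fewer, and nociceptor library 4 held 2. Its difference of -3.17 ± 1.32 between the proprioceptor and nociceptor protocols was the largest of the 9 factors tested in that contrast (edgeR unadjusted p = 0.0356, adjusted p = 0.665).

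Of the factors of the epithelial to mesenchymal transition, SNAI2 was the more abundant snail gene. It had 0.511, 6.05 and 1.43 TPM in proprioceptor libraries 1 to 3, 0.203, 0.255 and 5.27 TPM in mechanoreceptor libraries 1 to 3, and 11.1, 20.3, 10.3 and 2.13 TPM in nociceptor libraries 1 to 4. Nociceptor libraries 1 to 3 stood above every other library, and nociceptor library 4 lay within the ranges of the other protocols. The log2 difference was -2.20 ± 1.19 between the proprioceptor and nociceptor protocols and -2.73 ± 1.23 between the mechanoreceptor and nociceptor protocols (edgeR unadjusted p = 0.0925 and 0.0481, adjusted p = 0.665 and 0.598).

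SNAI1, which represses cadherin genes as SNAI2 does, had 0.0478, 1.35 and 0.178 TPM in proprioceptor libraries 1 to 3, 0.80, 0.359 and 0.845 TPM in mechanoreceptor libraries 1 to 3, and 1.49, 3.19, 3.61 and 0.342 TPM in nociceptor libraries 1 to 4. As for SNAI2, nociceptor libraries 1 to 3 held the highest values. SNAI2 exceeded SNAI1 in 8 libraries, and SNAI1 exceeded SNAI2 in mechanoreceptor libraries 1 and 2. TWIST1, a bHLH factor of migrating crest and head mesenchyme, had between 0 and 10 counts, at most 0.396 TPM, and did not pass the filter on low counts. No count was found in proprioceptor library 1 or nociceptor library 1, which allows up to 0.108 and 0.0674 CPM.

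Across the protocols, 9 of the 10 factors could be tested, and no difference passed an adjusted p of 0.05 in edgeR, as for 0% of the 16130 genes tested in each contrast. Between the proprioceptor and nociceptor protocols all 9 had a fitted difference below 0, against 47.8% of all genes, with a median of -1.75 against 0.03 for all genes. Between the mechanoreceptor and nociceptor protocols 8 of 9 were below 0, against 49.9% of all genes, with a median of -1.93 against 0.00. Both contrasts use the same 4 nociceptor libraries, so they are not separate evidence. Between the proprioceptor and mechanoreceptor protocols 5 were above and 4 below 0, against 46.3% of all genes below 0, with a median of 0.19 against 0.04, and the adjusted p-values of edgeR were all 1.00.

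At an unadjusted p under 0.05, 3 factors (PAX3, SNAI1 and SOX9) were lower in the proprioceptor than in the nociceptor protocol, where 6.19% of all genes passed and 3.14% were lower. Likewise 3 (PAX3, SNAI2 and MSX1) were lower in the mechanoreceptor than in the nociceptor protocol, where 8.18% of all genes passed and 4.59% were lower, and 0 differed between the proprioceptor and mechanoreceptor protocols, where 1.49% of all genes did. DESeq2 called 0, 1 and 0 factors in the 3 contrasts at an adjusted p under 0.05, where it called 0.193%, 0.781% and 0% of genes. In the edgeR test of any difference between the 3 protocols, which 5.73% of genes passed at an unadjusted p under 0.05, PAX3 had an unadjusted p of 0.00895 (adjusted p = 0.813) and the other 8 factors lay between 0.0675 and 0.696.

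Single libraries moved these counts. Between the proprioceptor and nociceptor protocols, the 3 factors at an unadjusted p under 0.05 became 7 without proprioceptor library 2, 5 without nociceptor library 4, 1 without nociceptor library 1 or 3, and 0 without proprioceptor library 1 or 3 or nociceptor library 2. The median of the 9 differences was -3.85 without proprioceptor library 2. Between the mechanoreceptor and nociceptor protocols the 3 became 6 without mechanoreceptor library 3, and 1 without mechanoreceptor library 1 or 2 or nociceptor library 2 or 3. Between the proprioceptor and mechanoreceptor protocols the median changed sign to -2.19 without proprioceptor library 2 and reached 1.23 without mechanoreceptor library 3. It was -0.20 without mechanoreceptor library 1, -0.29 without mechanoreceptor library 2, 0.73 without proprioceptor library 1 and 0.59 without proprioceptor library 3.

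**Figure D2:**
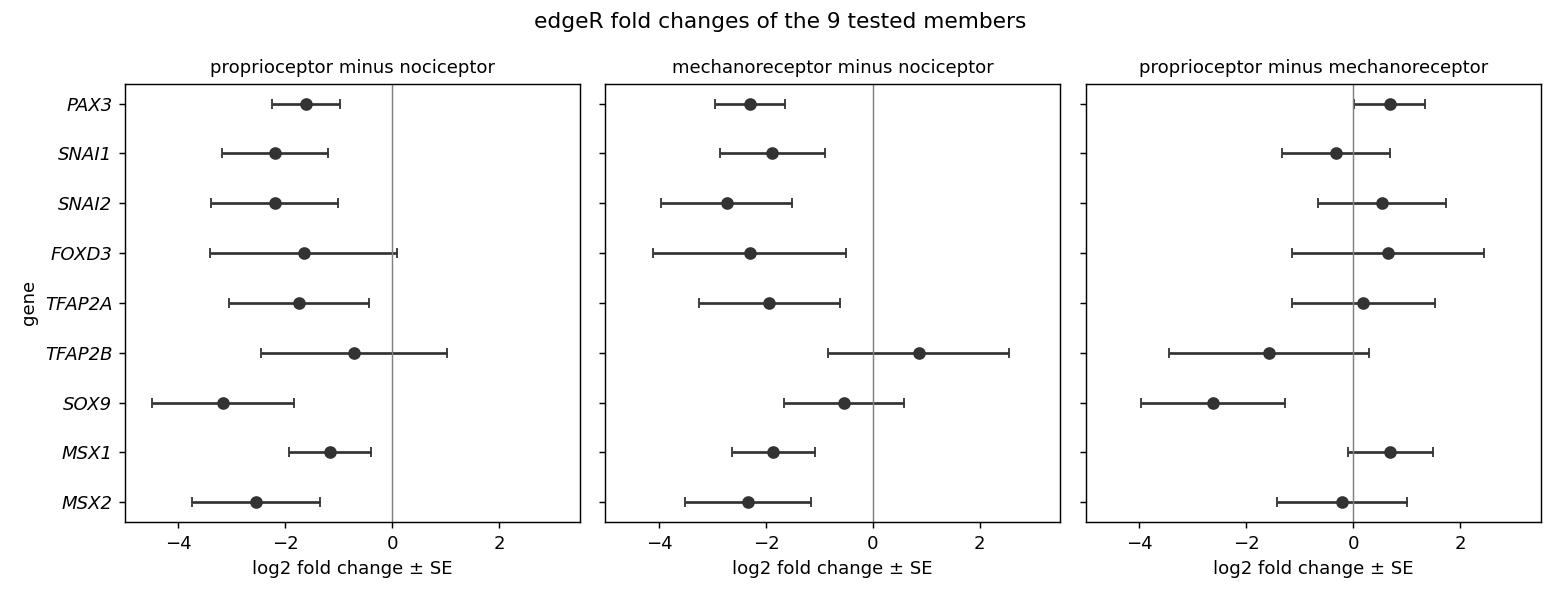
Log2 fold change with its standard error (horizontal axes) of the 9 tested factors in the 3 contrasts of an edgeR model of all 10 libraries; the vertical line marks no difference. All 9 points lie left of the line for proprioceptor minus nociceptor and 8 of 9 for mechanoreceptor minus nociceptor, with TFAP2B to its right at 0.86.

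The factors tended to be high and low in the same libraries. Over the 36 pairs of the 9 tested factors, the Pearson correlation of log2 CPM across the 10 libraries had a median of 0.70 and ran between -0.19 (PAX3 with TFAP2B) and 0.94 (SNAI2 with FOXD3), and 12 pairs reached 0.8. Pairs with TFAP2B had a median of 0.40 and pairs without it 0.73. These are descriptions over libraries that pool 3 protocols and share depth and culture makeup. In bulk samples, fewer cells of a type and less RNA per cell cannot be told apart.

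Among lists of markers of cell types, the glial and mesenchyme lists, with others given below, ran with most of the factors. The sensory neuron, pan-neuronal and skeletal muscle lists ran against them. The Schwann and satellite glia list (11 markers without FOXD3, all tested) added up to 2196 to 4457 TPM in the proprioceptor libraries, 1844 to 3950 TPM in the mechanoreceptor libraries and 2543 to 7578 TPM in the nociceptor libraries, with EGR2 alone at 0, in mechanoreceptor libraries 1 and 2. GAP43, which neurons also express, is the largest part of that list on average. The fibroblast and mesenchyme list (12 markers) added up to 466.5 to 1839 TPM in the proprioceptor libraries, 525.2 to 1969 TPM in the mechanoreceptor libraries and 989.2 to 4152 TPM in the nociceptor libraries, with PDGFRA and TWIST2 at 0 in proprioceptor library 1 and PRRX1 at 0 in mechanoreceptor library 2. THY1, which neurons also express, made up most of the lowest sums, with 458.7 and 431.7 TPM in proprioceptor libraries 1 and 3 and 508.0 TPM in mechanoreceptor library 1.

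On the mean log2 CPM scale, the glial list stood at 4.00, 6.70 and 3.66 in the 3 proprioceptor libraries, at 2.48, 1.75 and 6.56 in the 3 mechanoreceptor libraries, and at 7.08, 7.09, 7.56 and 5.35 in the 4 nociceptor libraries, each in the order of their numbers. Proprioceptor library 2 and mechanoreceptor library 3 were again the high libraries of their protocols. Across the 10 libraries this level correlated with FOXD3 at 0.99, SNAI2 at 0.97, TFAP2A at 0.93 and MSX2 at 0.93, and the mesenchyme level with TFAP2A at 0.97 and SNAI2 at 0.95. These lists were not alone in this. The proliferation level correlated with SNAI2 at 0.94, FOXD3 at 0.93, MSX1 at 0.91, MSX2 at 0.91 and TFAP2A at 0.89, and the level of 3 tested markers of central and dorsal neural progenitors with FOXD3 at 0.99, SNAI2 at 0.94 and MSX2 at 0.93. The chondrocyte level correlated with FOXD3 at 0.92 and SNAI2 at 0.90. The level of 4 tested melanocyte markers correlated with SNAI1 at 0.89, and that of surface ectoderm and epithelium with MSX1 at 0.84. PAX3 correlated at 0.53 with the glial, 0.61 with the mesenchyme and 0.69 with the proliferation level. The somatic sensory neuron level correlated below 0 with all 9 factors, between -0.91 (SNAI1) and -0.39 (PAX3). So did the pan-neuronal level, between -0.99 (SNAI1) and -0.41 (TFAP2B). The level of 3 tested skeletal muscle markers was also below 0 with all 9, between -0.79 (SNAI1) and -0.11 (TFAP2B). The autonomic level correlated with FOXD3 at 0.19, SNAI2 at 0.21 and PAX3 at -0.20. The part of cell makeup in the differences between protocols was not tested.

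**Figure D3:**
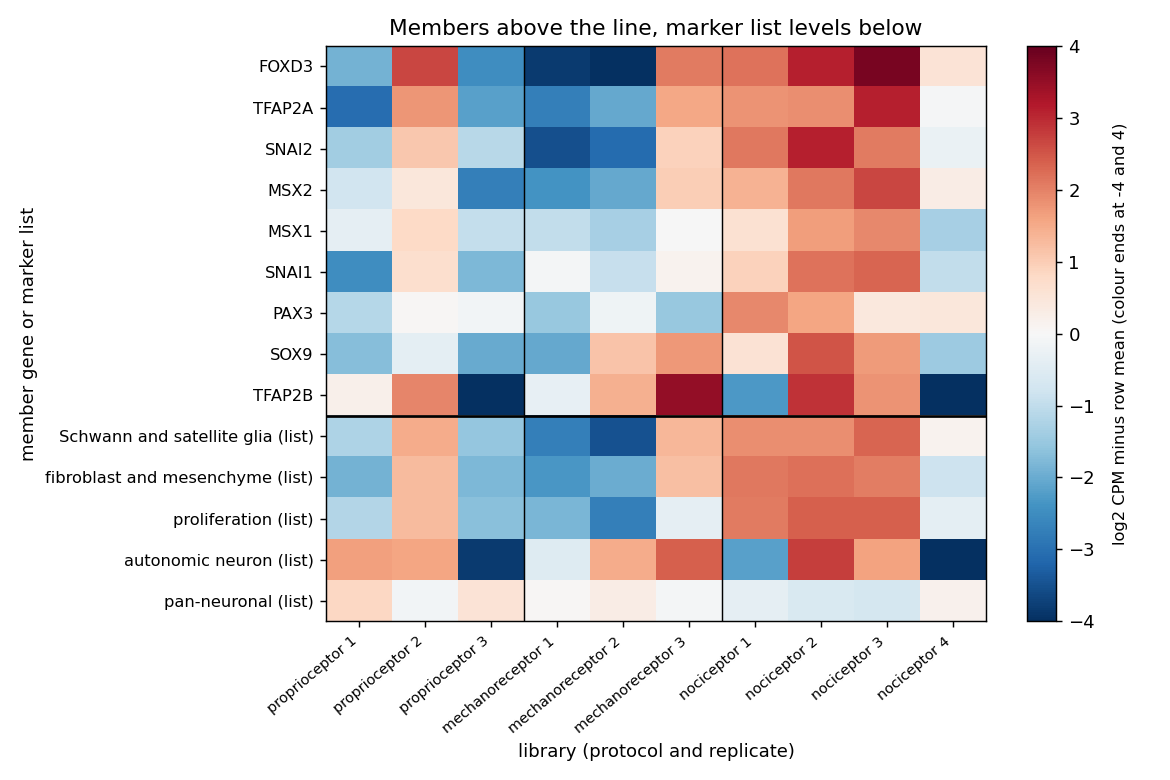
Log2 CPM of 9 factors (above the line) and mean log2 CPM of 5 marker lists (below it), each minus its mean over the 10 libraries; columns are libraries of the proprioceptor, mechanoreceptor and nociceptor protocols, red is above and blue below the row mean. FOXD3, TFAP2A, SNAI2 and MSX2 resemble the glial list (correlations of 0.99, 0.93, 0.97 and 0.93). They also resemble the mesenchyme list (0.92, 0.97, 0.95 and 0.92) and the proliferation list (0.93, 0.89, 0.94 and 0.91). TFAP2B resembles the autonomic list (0.97). The libraries do not stand in the same order in each row.

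The genes most like each factor, ranked by Pearson correlation of log2 CPM over the 10 libraries among 13847 genes with a mean of at least 1 TPM, differed between factors. FOXD3 was most like CMTM5 (0.998), PLAT, which encodes tissue plasminogen activator (0.997), and SOX10, the SOX factor of crest and glia (0.996). SOX10 had 1.33, 24.6 and 0.898 TPM in proprioceptor libraries 1 to 3, 0.732, 0.0136 and 17.7 TPM in mechanoreceptor libraries 1 to 3, and 34.2, 35.9, 48.2 and 7.91 TPM in nociceptor libraries 1 to 4, and FOXD3 stayed below it in every library. TFAP2B was most like SLIT3, a guidance ligand (0.976), HAND2, a bHLH factor of autonomic neurons (0.968), and GRP, a neuropeptide gene (0.967), and it correlated with the level of the autonomic neuron list at 0.97. HAND2 is 1 of the 7 markers of that list, so its value and that of the list are not separate.

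The autonomic list (7 markers) added up to 14.2 to 421.5 TPM in the proprioceptor libraries, 94.4 to 699.3 TPM in the mechanoreceptor libraries and 5.99 to 423.4 TPM in the nociceptor libraries. PHOX2A, a homeodomain factor of autonomic neurons, had no count in proprioceptor library 3 or nociceptor library 4, the same libraries in which TFAP2B had none. In nociceptor library 4, 3 of the 7 markers were at 0, HAND2 among them. In proprioceptor library 3, 2 were at 0, PHOX2A and GATA3. With the glial level TFAP2B correlated at 0.27.

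**Figure D4:**
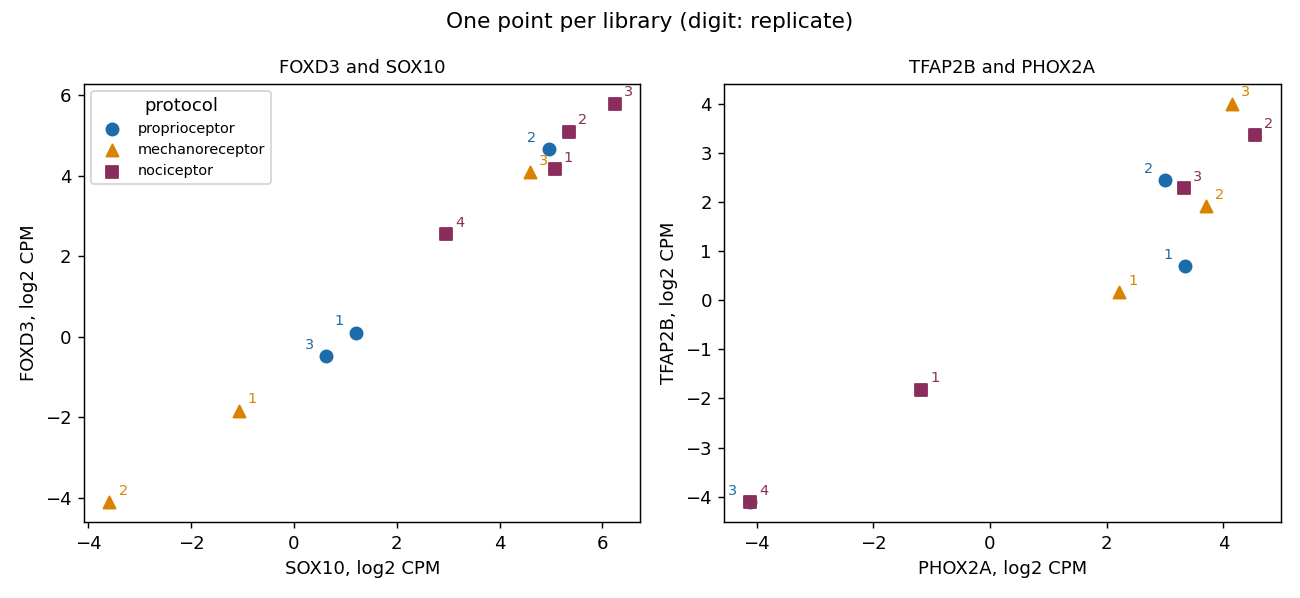
Log2 CPM of FOXD3 against SOX10 (left) and of TFAP2B against PHOX2A (right), 1 point per library of the proprioceptor, mechanoreceptor and nociceptor protocols, with the replicate number beside it. FOXD3 and SOX10 lie along 1 line over all protocols; on the right, the libraries with no count of either gene (proprioceptor 3 and nociceptor 4) lie on top of each other at the lower left.

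TFAP2A was most like PKNOX2, a homeodomain gene (0.993), AEBP1 (0.993) and COL18A1, a basement membrane collagen (0.991). SNAI2 was most like LIMA1, an actin-binding protein (0.987), AJUBA (0.983) and ADGRL4 (0.983), and MSX2 most like SP110 (0.991), DNAJC1 (0.988) and OLFML3 (0.987). MSX1 was most like HJURP, a chaperone of centromeric histone (0.983), MOB3C (0.978) and RNF135 (0.975). SNAI1 was most like KIF13A (0.974), LSM14A (0.966) and ERLIN1 (0.964), and SOX9 most like OR52K3P (0.955), PENK (0.932) and MLPH (0.926). PAX3 had the weakest likeness, with FAM111B (0.895), CLK4 (0.879) and FIRRM (0.870).

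Relatives of the factors were described from a list of 15 paralogs, of which 12 were tested and 0 passed the adjusted p of 0.05 in any contrast. Their median differences were -0.23 (proprioceptor minus nociceptor), -0.55 (mechanoreceptor minus nociceptor) and 0.24 (proprioceptor minus mechanoreceptor), nearer 0 than those of the factors in the contrasts with the nociceptor protocol. The paralogs with the highest mean level were SOX10, HAND2, SOX8 and TFAP2C. SOX8, a SOX factor of crest and glia, averaged 3.43 ± 3.63 TPM in the proprioceptor libraries (SD, n = 3), 3.85 ± 2.19 TPM in the mechanoreceptor libraries (SD, n = 3) and 7.73 ± 4.07 TPM in the nociceptor libraries (SD, n = 4). TFAP2C, another AP-2 gene, averaged 0.862 ± 1.27, 0.786 ± 1.30 and 3.08 ± 2.86 TPM in the proprioceptor, mechanoreceptor and nociceptor libraries. HAND2 differed by 0.28 ± 1.74 between the proprioceptor and nociceptor protocols and by 0.41 ± 1.74 between the mechanoreceptor and nociceptor protocols on the log2 scale.

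Of 25 other genes of the crest network, 22 were tested and 0 passed, with 20 of 22 below 0 between the proprioceptor and nociceptor protocols (median -1.62), 21 of 22 below 0 between the mechanoreceptor and nociceptor protocols (median -1.85) and 15 of 22 above 0 between the proprioceptor and mechanoreceptor protocols (median 0.19). SOX8, SOX10 and TFAP2C stand in this list and among the paralogs. NGFR, the low-affinity neurotrophin receptor of crest, glia and sensory neurons, was the most abundant, and the groups overlapped, with 80.5, 508.5 and 437.5 TPM in proprioceptor libraries 1 to 3, 423.2, 549.8 and 474.1 TPM in mechanoreceptor libraries 1 to 3, and 305.5, 444.8, 832.9 and 609.6 TPM in nociceptor libraries 1 to 4. RXRG, a retinoid receptor of crest and glia, differed by -1.56 ± 1.16 and -1.94 ± 1.18 on the log2 scale in the proprioceptor and mechanoreceptor contrasts with the nociceptor protocol. ID2, an inhibitor of bHLH factors, differed by -0.13 ± 0.44 and -0.20 ± 0.44, and LMO4, a LIM-only cofactor, by 0.21 ± 0.36 and 0.06 ± 0.36 in the same contrasts.

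Genes of the epithelial to mesenchymal transition, on which the snail and twist factors act, numbered 15, of which 14 were tested and 0 passed. The list pools genes that are turned on in the transition, such as VIM, FN1, CDH2 and MMP2, with epithelial genes that are turned down in it (CDH1, EPCAM, CLDN1, CLDN6, OCLN and CRB3). The fitted differences were below 0 in 10 of 14 cases between the proprioceptor and nociceptor protocols (median -1.52) and in 12 of 14 between the mechanoreceptor and nociceptor protocols (median -1.26), and above 0 in 11 of 14 between the proprioceptor and mechanoreceptor protocols (median 0.26). VIM, the intermediate filament vimentin, had 124.8, 900.6 and 79.1 TPM in proprioceptor libraries 1 to 3, 63.8, 99.1 and 702.3 TPM in mechanoreceptor libraries 1 to 3, and 1064, 1687, 2330 and 275.7 TPM in nociceptor libraries 1 to 4. Proprioceptor library 2 and mechanoreceptor library 3 were the high libraries of their protocols, as for FOXD3 and TFAP2A. MMP2, a matrix protease, differed by -2.49 ± 1.20 and -2.79 ± 1.22 on the log2 scale in the proprioceptor and mechanoreceptor contrasts with the nociceptor protocol, FN1, fibronectin, by -1.81 ± 1.68 and -1.90 ± 1.68, and CDH2, N-cadherin, by -0.70 ± 0.50 and -0.39 ± 0.50. EPCAM, an epithelial adhesion molecule named after its values were seen, stood the other way, with 32.3, 30.7 and 53.0 TPM in proprioceptor libraries 1 to 3, 22.3, 27.7 and 22.3 TPM in mechanoreceptor libraries 1 to 3, and 13.1, 20.9, 14.6 and 16.3 TPM in nociceptor libraries 1 to 4. The 3 protocols did not overlap. Between the proprioceptor and mechanoreceptor protocols 0.868% of the 16130 genes tested were higher without overlap. For the contrasts with the nociceptor protocol, and for all 3 protocols at once, the share of genes separated in this direction was not counted. The EPCAM difference between the proprioceptor and nociceptor protocols was 1.48 ± 0.35 on the log2 scale (edgeR adjusted p = 0.665). Among the other epithelial genes tested, CLDN1 and OCLN differed by -1.68 ± 0.71 and -1.35 ± 0.57, and CDH1 and CLDN6 by 0.21 ± 0.58 and 0.22 ± 1.34, in that contrast.

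Transcript values were taken as the share of a factor's TPM in libraries with at least 1 TPM, which SOX9 and TWIST1 did not reach. SNAI1 and FOXD3 had 1 measured transcript each. Leading means of highest mean TPM over the 10 libraries. The leading transcript held 88.9% ± 13.2 of MSX1 (SD, 8 libraries), 87.6% ± 11.5 of SNAI2 (SD, 7 libraries), 67.8% ± 11.1 of MSX2 (SD, 3 libraries), 53.3% ± 15.2 of TFAP2B (SD, 5 libraries), 33.8% ± 21.8 of PAX3 (SD, 3 libraries) and 21.6% ± 8.01 of TFAP2A (SD, 9 libraries). In MSX1, SNAI2 and MSX2 it never held less than 64.5%, 61.9% and 56.1%. In TFAP2B, PAX3 and TFAP2A another transcript held more in some libraries. The leading transcript held 27.3% against 42.9% of TFAP2B in mechanoreceptor library 2, and 10.7% against 39.5% of PAX3 in nociceptor library 4. For TFAP2A in nociceptor library 1 it held 12.2% against 49.1%. As shares of estimated counts, which long transcripts weigh more, the means of the leading transcript were 80.2% for MSX2, 89.5% for TFAP2B and 40.7% for TFAP2A.

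TFAP2A, on the minus strand of chromosome 6 between 10396677 and 10419659 (GRCh38.p14), had 19 annotated transcripts (GENCODE v29), which were grouped by start. There were 4 distal starts between 10419554 and 10419659, 7 middle starts between 10414985 and 10417207, 4 proximal starts between 10412046 and 10412879, and 4 others further inside the gene. The middle starts held 44.1% of TFAP2A TPM in proprioceptor library 2 and 42.1% in proprioceptor library 3, 37.8%, 8.44% and 31.4% in libraries 1 to 3 of the mechanoreceptor protocol, and 56.2%, 49.0%, 47.4% and 75.0% in nociceptor libraries 1 to 4. They were the largest class in proprioceptor library 2 and in all 4 nociceptor libraries, while the proximal class was the largest in mechanoreceptor libraries 1 (54.3%) and 3 (37.4%). Distal starts held at most 11.0%. These shares rest on an estimated division of reads between transcripts that overlap over most of their length, and were not tested. Some rest on few counts. ENST00000498450, of the middle class, held 35.5% in nociceptor library 4 with 16 counts. ENST00000475264, of the others, held 50.9% in mechanoreceptor library 2 with 14 counts.

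**Figure D5:**
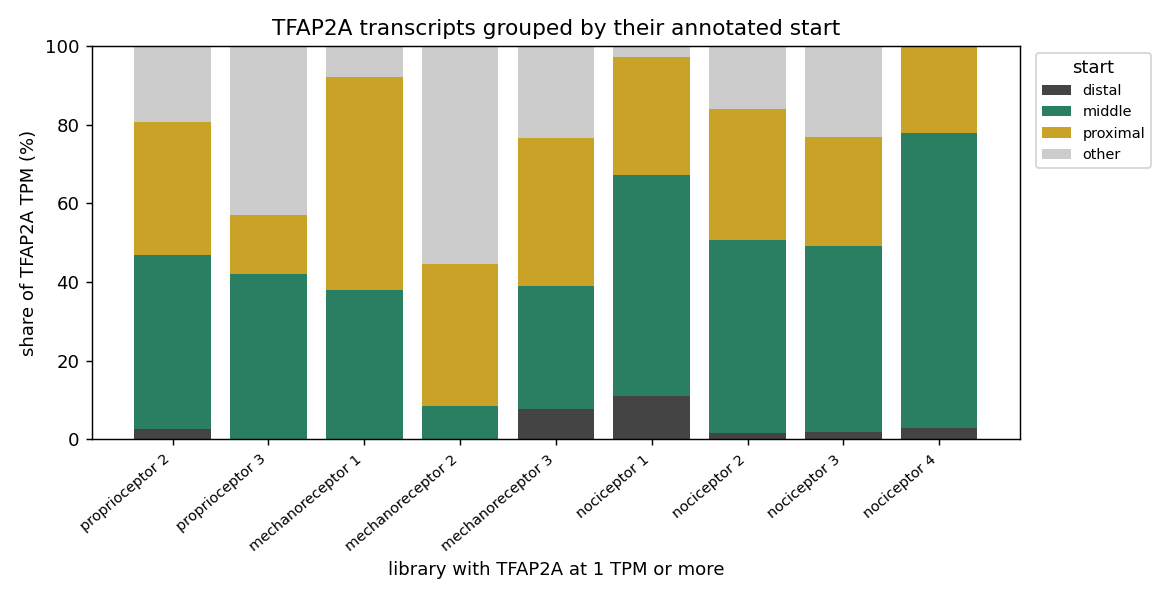
Share of TFAP2A TPM (vertical axis, %) by class of annotated transcript start in the 9 libraries with at least 1 TPM of TFAP2A, from the proprioceptor, mechanoreceptor and nociceptor protocols. The middle class is between 47.4% and 75.0% in the 4 nociceptor libraries and between 8.44% and 37.8% in the 3 mechanoreceptor libraries. TFAP2A was below 2.2 TPM in proprioceptor library 3 and mechanoreceptor libraries 1 and 2. In nociceptor library 4, 35.5% rests on 16 counts of a middle-class transcript.

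Antisense genes overlap exons of 3 factors. FOXD3-AS1 shares 8.58% of FOXD3 exon bases, TFAP2A-AS1 and TFAP2A-AS2 share 5.29% and 11.4% of TFAP2A exon bases, and AC003986.2 shares 6.94% of TWIST1 exon bases. Strand is not marked by the kit, and reads in these stretches cannot be assigned to either gene.

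The named genes held between 27891186 and 44541262 estimated counts per library, and counting error was small for TFAP2A, FOXD3 and SNAI2 in the libraries where they were high but large for SOX9 and TWIST1. The 11 pan-neuronal and 12 somatic sensory neuron markers all had a value above 0 in every library. All 11 pan-neuronal and 10 or 11 of the 12 sensory markers reached 1 TPM in each. The share of all genes above 0 in every library was not counted. Pan-neuronal markers added up to 13428 to 24269 TPM in the proprioceptor libraries, 13658 to 23236 TPM in the mechanoreceptor libraries and 7748 to 18484 TPM in the nociceptor libraries.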

How the data were processed

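RNA was reverse-transcribed with the Clontech Ultra Low v4 kit and made into NexteraXT libraries, per the labels' protocols. Abundances came from kallisto 0.50.1 and the build was GRCh38.p14, per the submitters' processing notes. The authors deposited estimated counts, rounded to whole numbers, and TPM per gene and per transcript; how transcripts were summed to genes is not given in the sources used here. An entry with no gene name, with 0.733% to 1.66% of the counts and 2.81% to 8.80% of the TPM of a library, was left out.

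Estimated counts of 16130 genes kept by filterByExpr were tested in R 4.3.3 with edgeR 4.0.16 (TMM scaling, quasi-likelihood F test, 1 mean per protocol, 10 libraries, two-sided) with Benjamini-Hochberg adjustment over all genes and a threshold of 0.05. The common biological coefficient of variation was 0.550. The fit was tested on simulated data. Log2 CPM used a prior count of 2. Alternatives were RLE scaling, DESeq2 1.42.0, no filter on low counts, limma 3.58.1 on log2(TPM + 1) and log2(TPM + 0.1), a replicate block, shares of counts and each library left out in turn. No pair of libraries agreed within sampling noise (lowest chi-square per degree of freedom 122.9).

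Coordinates and promoters came from RefSeq, GRCh38.p14, and transcripts from GENCODE v29. All 10 factors are described, and the 3 genes most like each are named. None passed the test among the paralogs, the other crest network genes and the genes of the transition. In each of these lists the 4 genes of highest mean TPM are named. Markers of cell types were not named by this rule, and some of those named, such as TYR and MYF5, were near absent. The factors and lists were chosen with earlier results of these data known.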

Additional observations from a re-analysis of the deposited data

How the results depend on the processing

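Of 432 values of single factors under an alternative, 415 kept their direction and their side of the adjusted threshold of 0.05, 16 changed sign and 1, PAX3 between the mechanoreceptor and nociceptor protocols in DESeq2, passed it. No alternative other than DESeq2 called a factor. DESeq2 put 5, 5 and 1 factors at an unadjusted p under 0.05 in the proprioceptor minus nociceptor, mechanoreceptor minus nociceptor and proprioceptor minus mechanoreceptor contrasts, against 3, 3 and 0 in edgeR, and called 1 in the second; the cause was not tested. In the third contrast limma on log2(TPM + 1) gave a median of -0.10 and TFAP2A at -0.10, and on log2(TPM + 0.1) a median of -0.30 and TFAP2A at -0.34. Same-numbered libraries had correlations of deviations from their protocol means between -0.63 and 0.49, and differently numbered ones between -0.60 and 0.79. Deviations within a protocol of 3 or 4 libraries depend on each other, so these values cannot decide whether a number marks a shared batch. With the replicate block, medians were -2.57, -2.60 and 0.54, 0 factors were called and MSX2 changed sign to 0.54 in the third contrast. As shares of estimated counts, the leading transcript had 40.7% of TFAP2A, 89.5% of TFAP2B and 80.2% of MSX2.

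With each library left out, the median ran between -3.85 and -1.35, between -2.41 and -1.50, and between -2.19 and 1.23 in the 3 contrasts, and factors at an unadjusted p under 0.05 numbered 0 to 7, 1 to 6 and 0 to 2; 0 were called. Signs changed for TFAP2B (-2.36 to 0.47) in the first contrast, for TFAP2B (-0.73 to 2.04) and SOX9 (-1.34 to 0.18) in the second, and in the third for SNAI1 (-2.19 to 0.14), SNAI2 (-0.74 to 3.53), FOXD3 (-2.80 to 6.31), TFAP2A (-2.70 to 2.76), TFAP2B (-3.19 to 0.023) and MSX2 (-1.48 to 2.40). Leading shares ran between 23.8% and 45.4% for PAX3, 20.6% and 23.2% for TFAP2A, 49.8% and 59.8% for TFAP2B, and 62.7% and 73.7% for MSX2. Depth limits SOX9, TWIST1 and low MSX2 values.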

Other observations

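Markers of other tissues in which these factors act had varied levels. MYF5, a muscle precursor factor, had no count in any of the 10 libraries and MYOD1 none in 9, while PAX7, a PAX3 paralog also found in muscle precursors, reached at most 0.0724 TPM. Of 9 skeletal muscle markers 3 were tested, with median log2 differences of 0.98 (proprioceptor minus nociceptor), 0.46 (mechanoreceptor minus nociceptor) and 0.52 (proprioceptor minus mechanoreceptor). Of 8 melanocyte markers 4 were tested, with medians of -1.26, -0.14 and -0.61 in the same order of contrasts, and TYR, the pigment enzyme, reached at most 0.122 TPM. The 8 added up to 2.27 to 9.46 TPM in the proprioceptor, 6.10 to 28.5 TPM in the mechanoreceptor and 8.65 to 24.4 TPM in the nociceptor libraries. Between 1 and 3 of them reached 1 TPM in each library. Chondrocyte markers, 10 of 10 tested, had medians of -0.60, -1.42 and 0.28 and added up to 22.2 to 132.9 TPM in the proprioceptor, 16.1 to 113.4 TPM in the mechanoreceptor and 68.4 to 173.4 TPM in the nociceptor libraries, beside SOX9 at less than 1 TPM.

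Of 9 markers of surface ectoderm and epithelium, where TFAP2A is also expressed, 6 were tested, with medians of -0.77, -0.99 and 0.70 and sums of 63.9 to 74.3 TPM in the proprioceptor, 71.0 to 98.3 TPM in the mechanoreceptor and 33.0 to 156.1 TPM in the nociceptor libraries; TP63, the keratinocyte factor, reached at most 0.310 TPM. Of 10 markers of central and dorsal neural progenitors 3 were tested, with medians of -1.45, -1.91 and 0.42, and PAX6 reached at most 0.337 TPM. The 12 somatic sensory neuron markers had medians of 0.78, 0.33 and 0.10, the 11 pan-neuronal markers 0.96, 0.44 and 0.23, and the 10 proliferation markers -1.88, -3.32 and 1.55. The glial, mesenchyme and autonomic lists had medians of -1.68, -1.99 and -0.04 between the proprioceptor and nociceptor protocols, -2.11, -1.75 and 0.41 between the mechanoreceptor and nociceptor protocols, and 0.41, 0.04 and -0.09 between the proprioceptor and mechanoreceptor protocols. No gene of these lists passed the adjusted p of 0.05 in edgeR.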
